A study of Mus musculus with 5 samples.

Results

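Genes whose symbols start with Zfp followed by a digit carried 66 of the 4688 positions that the deposited tables list as differently methylated between the common myeloid progenitors of G5 and G0 mice. They were found by that spelling in the gene column, which names the nearest RefSeq start site at any distance, and they came to 38 genes of 2797. Of these positions 45 in 25 genes were listed as higher in G5 and 21 in 18 genes as lower, and 5 genes (Zfp42, Zfp316, Zfp326, Zfp385c and Zfp703) had positions in both directions. Every position was in the tables because it had passed the authors' own test on these 5 samples, so the direction of a position is a description and no independent finding.

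Common myeloid progenitors (CMP) are bone marrow cells that give rise to the granulocyte-monocyte and the erythroid-megakaryocyte lineages, and they were sorted here from mice of mainly C576BL/6 background. The 2 G5 pools came from mice with the genotype G5 TERTER/ER, labelled as having short telomeres, and the 3 G0 pools came from mice with the genotype G0 TERTER/+, labelled as normal. Both genotypes thus include the ER allele of Tert, in which the catalytic subunit of telomerase is joined to a hormone-binding part of the oestrogen receptor and is inactive without the hormone, and the G0 mice keep a wild-type copy beside it. Each pool mixes mice, their ages are not given in the labels, and the sorted cell type could not be checked by markers because methylation alone was measured. Methylation was read by reduced representation bisulfite sequencing, which covers CpG-rich restriction fragments, at 29 to 38 M reads for a sample. A level is the percent of reads at a cytosine that were methylated, a difference is the G5 mean minus the G0 mean in percentage points, and the read depth behind a single level is unknown.

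Most Zfp genes encode proteins with tandem C2H2 zinc fingers, small folds held by a zinc ion through a pair of cysteines and a pair of histidines, each of which can contact a few bases of DNA. Many of them also carry a KRAB domain, which recruits the corepressor TRIM28 and with it histone H3 lysine 9 methylation, and such genes lie in large clusters of related copies. Zfp is a naming convention rather than a family: a few members bind RNA or the cytoskeleton. In the translated longest GENCODE coding sequences of the 37 protein-coding members, 17 had 10 or more matches to a C2H2 pattern, 5 had none (Zfp36, Zfp36l1, Zfp185, Zfp503 and Zfp703), and 10 matched a strict pattern of the KRAB A box, which can miss divergent copies. The 51 bases around every one of the 66 cytosines, after conversion of C to T, occurred at 1 place in the genome, so none of these positions has an exact copy of that length elsewhere.

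The stretches below hold the listed CpGs on which the results turn most, each with 12 bases on either side, on the plus strand of GRCm38. Listed CpGs are in capitals, and other CpGs of a stretch either were not measured or did not pass the authors' test. Positions are given as the plus-strand cytosine of the CpG, counted from 1. The promoter island of Zfp783 is shown for its 7 listed CpGs among 18, the coding island of Zfp316 for 3 among 7, the finger array of Zfp239 for 2 among 8, the coding island of Zfp703 for 2 among 4, the island assigned to Zfp369 for 2 among 5, and the stretch beyond the end of Zfp36 for 1 among 2.
Zfp783 at chr6:47943253-47943389: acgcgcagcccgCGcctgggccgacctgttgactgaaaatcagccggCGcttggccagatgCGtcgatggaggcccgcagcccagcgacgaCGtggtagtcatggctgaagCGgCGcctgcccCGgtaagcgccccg
Zfp316 at chr5:143253323-143253390: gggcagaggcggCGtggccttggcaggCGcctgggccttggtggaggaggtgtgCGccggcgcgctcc
Zfp239 at chr6:117871461-117871570: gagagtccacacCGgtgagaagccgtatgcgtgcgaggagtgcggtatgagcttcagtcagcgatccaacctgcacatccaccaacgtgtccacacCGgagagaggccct
Zfp703 at chr8:26979289-26979324: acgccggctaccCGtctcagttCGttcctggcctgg
Zfp369 at chr13:65259323-65259363: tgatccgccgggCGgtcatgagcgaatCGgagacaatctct
Zfp36 at chr7:28376628-28376653: ctcatctcgccaCGcctcctcaggtg

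Over the 45 higher Zfp positions, the median level of a pool was 54.0% and 71.6% in the G5 pools, against 42.7%, 33.0% and 44.4% in the G0 pools. At the 21 lower positions it was 19.5% and 28.2% in the G5 pools, against 43.5%, 41.4% and 44.1% in the G0 pools. The difference of group means ran from 9.93 to 31.9 points in size, with a median of 17.3 points at higher and 13.7 points at lower positions, against 16.3 points in both directions over all listed positions. The G5 pools lay beyond every G0 pool at 35 of 45 higher positions (77.8%), where 86.9% of all higher positions did, and at 21 of 21 lower positions, where 83.9% of all lower positions did. In limma's moderated test on the percents, adjusted by Benjamini-Hochberg over all 4688 positions, 13 higher Zfp positions in 8 genes (28.9%, background 33.2%) and 5 lower positions in 5 genes (23.8%, background 33.0%) passed an adjusted p of 0.05. These shares of limma calls are near or under the background, so they say nothing particular of Zfp genes. The 21 of 21 lower positions without overlap were over their background of 83.9%, which was not tested. All 4688 positions had been selected by the authors on these same samples, so a pass here and below is a description too. An adjusted p is therefore no rate of false calls among the measured CpGs. A log2 odds scale weighs differences near 0% and 100% more. On it limma called 15 of 45 higher and 12 of 21 lower Zfp positions. Over all listed positions it called 1056 of 2618 higher (40.3%) and 881 of 2070 lower ones (42.6%). The Zfp share was thus under the background for higher and over it for lower positions, which was not tested. Of the calls on percents, those of Zfp36, Zfp282, Zfp316, the CpG at 65259350 of Zfp369, the lower CpG of Zfp385c and the CpG at 47943367 of Zfp783 passed on that scale too. The other 12 did not, at adjusted p values of 0.0524 to 0.0736, so most calls below depend on the scale, and a pass without further words is one on percents. Without any G0 pool in turn 0 of the 66 positions passed limma, with 15 to 20 higher and 8 or 9 lower ones at an unadjusted p under 0.05, against 31 and 16 with all pools. No share over all listed positions was counted for these, so whether they are particular to Zfp genes is not known. A permutation of 2 and 3 pools has 10 splits, so an exact test of a single position cannot give a p below 0.1.

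**Figure D1:**
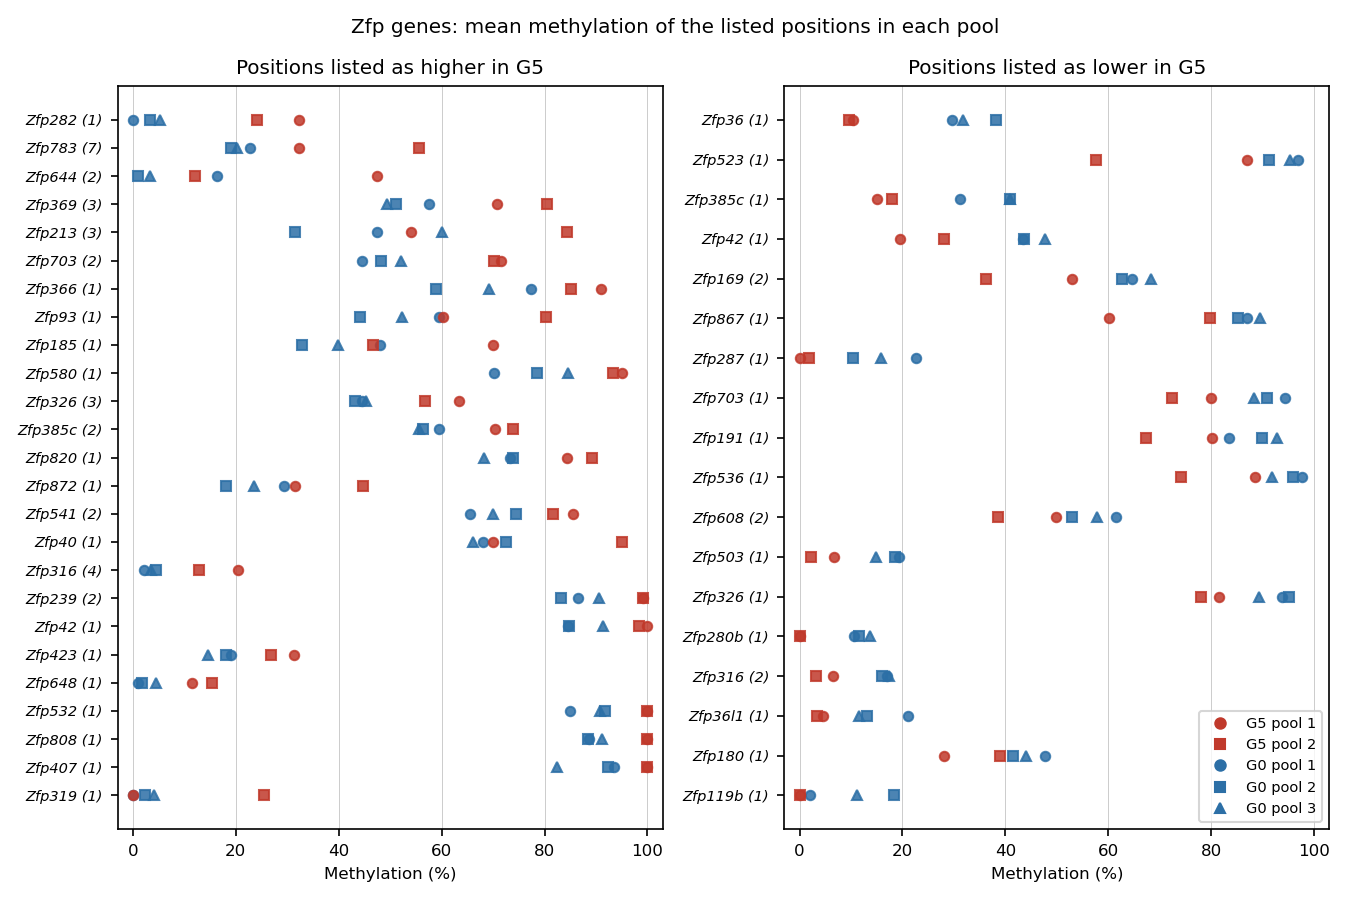
Mean methylation in percent of the listed positions of each Zfp gene (number of positions in brackets) in each of the 2 G5 pools (red) and 3 G0 pools (blue), for positions listed as higher (left) or lower (right) in G5, ordered by the size of the difference. The gene means of the pools do not overlap for 20 of 25 genes on the left and for all 18 on the right. No such share was counted over all listed genes. By single position the pools did not overlap at 86.9% of all higher and 83.9% of all lower positions.

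The largest group of positions belonged to Zfp783, which RefSeq annotates as a long noncoding RNA and GENCODE as a transcribed unprocessed pseudogene. Its 7 positions (chromosome 6, 47943265 to 47943376) lie 91 to 203 bp downstream of the start site, in the first exon and inside a CpG island, and all were listed as higher. Averaged over them, methylation was 32.3% and 55.5% in the G5 pools, against 22.8%, 19.0% and 20.3% in the G0 pools, a difference of 23.2 points. The G5 pools were unlike each other, and G5 pool 2 was above every G0 pool at each CpG. Without G5 pool 2 the difference was 11.6 points, and without G5 pool 1 it was 34.8 points. The CpG at 47943367 had the largest difference of any Zfp position, with 49.3% and 73.6% in the G5 pools, against 26.9%, 28.7% and 33.0% in the G0 pools, that is 31.9 points (limma standard error 7.60, adjusted p = 0.0444). It and its neighbour at 47943364 were the positions of Zfp783 that passed limma on percents. At the CpG nearest the start site, 47943265, the pools overlapped, with 5.04% and 30.3% in G5, against 7.69%, 4.10% and 4.35% in G0. Levels went up and down along the island in both kinds of mice: at the CpG 126 bp downstream they were 38.0% and 47.5% in the G5 pools, against 31.5%, 20.7% and 12.5% in the G0 pools, and at 140 bp they were 15.7% and 37.4% in the G5 pools, against 10.9%, 8.43% and 3.13% in the G0 pools.

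**Figure D2:**
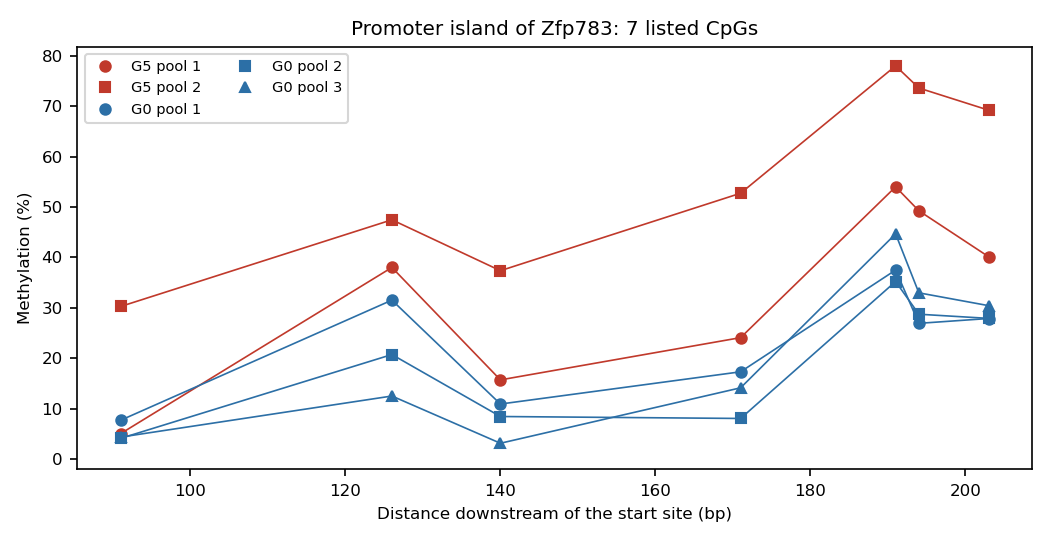
Methylation in percent of the 7 listed CpGs of the Zfp783 promoter island in each pool, against the distance downstream of the start site in bp. G5 pool 2 lies above all other pools at each CpG, while G5 pool 1 is above the G0 pools at 6 of 7 and stands at 5.04% at the first.

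The next gene upstream among the listed Zfp genes on that chromosome, Zfp282, whose human counterpart was described as a repressor of a retroviral long terminal repeat, had 1 promoter island position at 47877592, 39 bp downstream of its start site. It stood at 32.4% and 24.1% in the G5 pools, against 0%, 3.33% and 5.26% in the G0 pools. This difference of 25.4 points (limma adjusted p = 0.0412) was the largest of the Zfp genes as a gene mean, and the pools did not overlap. Zfp282 and Zfp783 were thus the Zfp genes whose promoter positions passed limma on percents.

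Other promoter islands moved with single pools or from low levels. Zfp644, whose human counterpart works with histone H3 lysine 9 methyltransferases, had 2 CpGs at chromosome 5, 106696259 and 106696262, which the authors place in an intron 569 to 572 bp from the start site. They averaged 47.5% and 12.1% in the G5 pools, against 16.4%, 0.943% and 3.23% in the G0 pools. The groups overlapped, and the difference of 22.9 points came to 5.26 points without G5 pool 1 and to 40.6 points without G5 pool 2. At the single promoter CpG of Zfp319, a gene of C2H2 fingers on chromosome 8, the G5 pools stood at 0% and 25.4%, against 0%, 2.38% and 4.11% in the G0 pools. The sign of that difference rested on G5 pool 2, since it was 10.5 points with both pools, -2.16 points without G5 pool 2 and 23.3 points without G5 pool 1. Zfp185, which despite its name encodes a LIM-domain protein of the actin cytoskeleton and lies on the X chromosome, stood at 70% and 46.7% in the G5 pools, against 48.1%, 32.9% and 39.8% in the G0 pools. The groups overlapped there too, and its 18.1 points came to 6.47 without G5 pool 1 and to 29.7 without G5 pool 2. The sex of the mice in each pool did not enter the comparison, so its part in levels on the X chromosome was not tested.

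Promoters listed as lower belonged to 3 Zfp genes, each with 1 island CpG, and none of the 3 passed limma on percents, while Zfp280b and Zfp119b did on the log2 odds scale (adjusted p = 0.00671 and 0.0364). Zfp280b, on chromosome 10, was listed at 0% in both G5 pools, against 10.6%, 11.6% and 13.7% in the G0 pools (limma adjusted p = 0.0551). Zfp119b, a KRAB gene of chromosome 17, was likewise at 0% in both G5 pools, against 1.96%, 18.4% and 11.1% in the G0 pools. Its G0 pools were far apart, and the difference of -10.5 points became -6.54 without G0 pool 2. Zfp180 on chromosome 7 had 28.0% and 38.9% in the G5 pools, against 47.8%, 41.4% and 44.1% in the G0 pools. The gap between its nearest pools was small, and -11.0 points became -5.52 without G5 pool 1. Since the depth is unknown, no limit can be set on a level listed at 0%.

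The 10 genes with a KRAB A box match held 18 positions, 12 higher in 7 genes and 6 lower in 4 genes, with Zfp316 in both counts. Of these 4 higher and 2 lower positions passed limma, 33.3% in each direction, where 33.2% and 33.0% of all listed positions did. Such genes encode sequence-specific repressors, several of which silence transposable elements. By GENCODE, 8 of the 18 positions lay inside the gene they are named for and 10 outside it.

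Zfp316 (chromosome 5, 143249697 to 143270022, minus strand) had 6 positions, all in coding sequence and in CpG islands by the authors' flags. The 4 positions farther from the start site, 15765 to 16689 bp downstream, were listed as higher and averaged 20.3% and 12.9% in the G5 pools, against 2.14%, 4.45% and 3.42% in the G0 pools. The 2 nearer positions, 15037 and 15190 bp downstream, were listed as lower and averaged 6.58% and 3.22% in the G5 pools, against 17.0%, 16.02% and 17.3% in the G0 pools. The pools did not overlap at any of the 6 CpGs, nor did they at 86.9% of all higher and 83.9% of all lower positions. At the listed CpGs the G5 pools lay above the G0 pools toward the end of the coding sequence and below them upstream. The differences were 13.3 and -11.9 points. Of the 6, the CpG at 143254986 passed limma (adjusted p = 0.0497), and the CpG at 143253350 missed it (adjusted p = 0.0501). The CpGs at 143253377 and 143254259 also missed it on percents (limma adjusted p = 0.0532 and 0.0544). On the log2 odds scale the CpGs at 143253350, 143253377 and 143254259 passed limma (adjusted p = 0.0309, 0.0224 and 0.0310). The CpG at 143253335 was the least even, at 30.7% and 7.32% in the G5 pools, against 1.96%, 5.83% and 6.06% in the G0 pools.

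**Figure D3:**
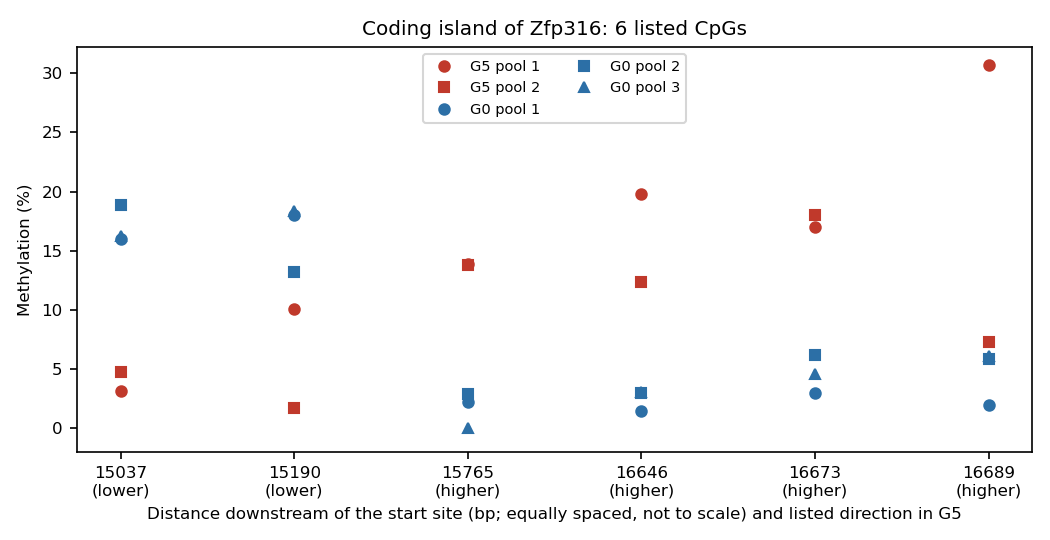
Methylation in percent of the 6 listed CpGs of Zfp316 in each pool, ordered by their distance downstream of the start site in bp (equally spaced). The G5 pools lie below the G0 pools at the 2 nearer CpGs and above them at the 4 farther ones.

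Zfp369, which encodes a relative of a neurotrophin receptor interacting factor, had 3 higher positions, all of which passed limma on percents. The pair at chromosome 13, 65259335 and 65259350, lies in an island 19505 to 19520 bp upstream of its start site, outside any gene of GENCODE. The CpG at 65259350 stood at 83.5% and 93.9% in the G5 pools, against 67.5%, 66.7% and 58.8% in the G0 pools, a difference of 24.4 points (limma standard error 5.36, adjusted p = 0.0432). The third position, 65311700, lies beyond the other end of the gene and outside islands, at 55.0% and 53.5% in the G5 pools, against 37.6%, 33.0% and 33.3% in the G0 pools (limma adjusted p = 0.0426). Levels at the 3 positions did not overlap between the groups, as at 86.9% of all higher positions. The listed positions thus lie on both sides of the gene, and higher is the direction for which they were listed. Elsewhere on chromosome 13, Zfp169 had 2 lower positions between genes (48436911 and 48436993), over 76 kb from its start site. Their mean was 52.9% and 36.3% in the G5 pools, against 64.6%, 62.7% and 68.4% in the G0 pools, and the CpG at 48436911 passed limma (adjusted p = 0.0444). Without G5 pool 2 that difference of -20.6 points was -12.3.

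The other KRAB genes had 1 position each. Zfp820 stood at 84.4% and 89.2% in the G5 pools, against 73.2%, 73.9% and 68.2% in the G0 pools, 12626 bp upstream of its start site, and passed limma (adjusted p = 0.0486). The position named for Zfp808 lies 38203 bp upstream of its start site, in an intron of Gm48228. It stood at 100% in both G5 pools, against 88.6%, 88.5% and 91.1% in the G0 pools. It missed the threshold on percents (limma adjusted p = 0.0648) and passed on the log2 odds scale (limma adjusted p = 0.00671). At the position named for Zfp93, 10316 bp downstream of its start site, the G5 pools stood at 60.2% and 80.2%, against 59.5%, 44.1% and 52.3% in the G0 pools. Those pools did not overlap, and the 18.3 points of Zfp93 were 8.28 without G5 pool 2 and 28.2 without G5 pool 1. The position named for Zfp40 lies in an intron of a vomeronasal receptor pseudogene, 52006 bp upstream, at 70% and 95.1% in the G5 pools, against 68.1%, 72.5% and 66.0% in the G0 pools. Its groups overlapped, and the difference of 13.7 points was 1.11 without G5 pool 2 and 26.2 without G5 pool 1. Zfp872 had a promoter CpG in an island shore at 31.6% and 44.8% in the G5 pools, against 29.3%, 18.2% and 23.5% in the G0 pools. Those 14.5 points were 7.91 without G5 pool 2. Zfp867 was lower 3508 bp upstream of its start site, at 60.2% and 79.8% in the G5 pools, against 87%, 85.3% and 89.6% in the G0 pools. That difference was -17.3 points, -7.53 without G5 pool 1 and -27.1 without G5 pool 2.

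Inside the finger arrays themselves, 4 coding positions were listed, and all were higher in G5. Tandem fingers are joined by a short conserved linker, and 3 of these CpGs lie in codons that match it. Both CpGs of Zfp239, a gene whose product binds DNA and RNA, are of this kind: the stretch printed above holds the same letters, cacacCGg, at each. They stood at 99.2% and 99.1% in the G5 pools, against 86.5%, 83.2% and 90.7% in the G0 pools, with a smallest limma adjusted p of 0.0545. The third linker CpG is in Zfp648 on chromosome 1, which unlike Zfp239 lies in a CpG island and was sparsely methylated, at 11.4% and 15.5% in the G5 pools, against 1.08%, 1.71% and 4.55% in the G0 pools. The 4th lies within a finger of Zfp42, at 100% and 98.3% in the G5 pools, against 84.5%, 84.7% and 91.4% in the G0 pools. None of the 4 passed limma on percents, where 33.2% of all higher positions did. All 4 passed it on the log2 odds scale (adjusted p values of 0.0175 to 0.0319), where 40.3% of all higher positions did. That scale weighs differences near 0% and 100% more. The groups were apart at each, as at 86.9% of all higher positions.

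Zfp42, also called Rex1, is a marker of pluripotent cells. Its other position lies between genes at chromosome 8, 43333696, 26688 bp upstream of the start site, and was listed as lower. There the G5 pools stood at 19.5% and 28.2%, against 43.5%, 43.6% and 47.8% in the G0 pools, a difference of -21.1 points that passed limma (adjusted p = 0.0433). The coding CpG and the upstream CpG of Zfp42 thus differed in opposite directions, from a high and from a middle level.

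Zfp703 and Zfp503 encode related corepressors of development that have lost most of the finger array, and Zfp703 is known for its human counterpart in breast cancer. The 2 coding island CpGs of Zfp703 (chromosome 8, 26979301 and 26979311) were higher, and both passed limma on percents and missed it on the log2 odds scale (adjusted p = 0.0674 and 0.0556). Their mean was 71.5% and 70.1% in the G5 pools, against 44.5%, 48.3% and 52.0% in the G0 pools, a difference of 22.6 points. The G5 pools were closer in this mean than at either CpG, with 59% and 71.6% in the G5 pools, against 42.7%, 47.1% and 44.4% in the G0 pools, at 26979301. At 26979311 levels were 84% and 68.7% in the G5 pools, against 46.3%, 49.4% and 59.6% in the G0 pools. A further CpG, 20467 bp downstream of the start site and past the end of the gene, was lower at 80% and 72.4% in the G5 pools, against 94.3%, 90.9% and 88.3% in the G0 pools (limma adjusted p = 0.0507). The coding island CpG of Zfp503 on chromosome 14 was lower, at 6.67% and 2.30% in the G5 pools, against 19.3%, 18.6% and 14.8% in the G0 pools (limma adjusted p = 0.0538). This CpG and the lower one of Zfp703 passed limma on the log2 odds scale (adjusted p = 0.0348 and 0.0482). Coding islands of both genes were therefore listed, in opposite directions. Zfp423, a regulator of adipocyte commitment and of the cerebellum, had an intronic island CpG at 31.4% and 26.9% in the G5 pools, against 19.0%, 18.0% and 14.6% in the G0 pools. Zfp366, known in human dendritic cells as DC-SCRIPT, had an intronic CpG at 90.9% and 85.2% in the G5 pools, against 77.4%, 58.8% and 69.3% in the G0 pools. Neither passed limma, at adjusted p values of 0.0613 and 0.0542.

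Zfp36 and Zfp36l1 encode CCCH proteins that bind AU-rich elements of messenger RNAs and promote their decay, and Zfp36 (tristetraprolin) restrains the production of inflammatory cytokines. Each had 2 matches to a CCCH pattern and 0 to the C2H2 pattern. The CpG of Zfp36 at chromosome 7, 28376640, lies in an island shore just past the end of the gene. It stood at 10.4% and 9.52% in the G5 pools, against 29.7%, 38.1% and 31.8% in the G0 pools, a difference of -23.2 points that passed limma (adjusted p = 0.0426). This was the largest difference among lower Zfp genes as a gene mean, and the G5 pools were within 1 point of each other. The CpG of Zfp36l1 lies in an island 2799 bp upstream of the start site, at 4.62% and 3.41% in the G5 pools, against 21.1%, 13.0% and 11.5% in the G0 pools (limma adjusted p = 0.0775). Both of these CCCH genes were listed as lower, and Zfp36l1 passed limma on the log2 odds scale alone (adjusted p = 0.0383).

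Zfp385c was the Zfp gene with positions in both directions that passed limma in each on percents; on the log2 odds scale the higher one did not (adjusted p = 0.0736). Its product belongs to a small family of double-stranded RNA-binding type fingers. The higher CpG at chromosome 11, 100640489, an island inside an intron, stood at 48.9% and 56.8% in the G5 pools, against 34%, 34.9% and 34.8% in the G0 pools (limma adjusted p = 0.0444). The lower CpG at 100637744 stood at 15.1% and 18% in the G5 pools, against 31.3%, 40.9% and 41.0% in the G0 pools, with the same adjusted p in limma's test. The authors flag that second CpG as intronic, and GENCODE places it in coding sequence of another transcript. A further higher CpG at 100657230, at 92% and 90.8% in the G5 pools against 84.8%, 77.7% and 76.2% in the G0 pools, did not pass limma (adjusted p = 0.0677).

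Several names are only the nearest start site. The higher pair named for Zfp326, whose human counterpart joins transcription by RNA polymerase II to splicing, lies in an intron of Lrrc8d, a subunit gene of volume-regulated anion channels, over 83 kb upstream of Zfp326. At 105792897 on chromosome 5 the G5 pools stood at 47.2% and 43.5%, against 29.8%, 27.8% and 26.5% in the G0 pools, and at 105792920 they stood at 48.1% and 33.3%, against 18.8%, 21.01% and 22.9% in the G0 pools. Both passed limma, with adjusted p values of 0.0444 and 0.0468. The remaining positions named for Zfp326 missed limma on percents and passed it on the log2 odds scale (adjusted p = 0.0491 and 0.0469). The one 19090 bp upstream was higher, at 94.7% and 93.3% in G5 against 85.04%, 80.5% and 86.7% in G0. The one 186498 bp downstream was lower, at 81.6% and 78.0% in G5 against 93.8%, 95.1% and 89.4% in G0. The 3 CpGs named for Zfp213, within 16 bp of each other on chromosome 17 and 40731 to 40746 bp from its start site, lie between genes. They averaged 54.1% and 84.3% in the G5 pools, against 47.4%, 31.5% and 60.01% in the G0 pools. The groups overlapped at all 3, and the difference of 22.9 points was 7.79 without G5 pool 2 and 38.0 without G5 pool 1. The position named for Zfp523 lies in an intron of Scube3, at 87.1% and 57.6% in the G5 pools, against 96.8%, 91.3% and 95.4% in the G0 pools. Its difference was -22.2 points, -7.42 without G5 pool 2 and -36.9 without G5 pool 1. That position missed limma on percents (adjusted p = 0.0696) and passed it on the log2 odds scale (adjusted p = 0.0495).

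In contrast, the authors' distances put the 2 island CpGs named for Zfp541, a gene of male meiosis, over 10 kb upstream, while GENCODE starts the gene between them, 137 bp downstream of the first. The CpG at chromosome 7, 16061832, stood at 75% and 77.9% in the G5 pools, against 58.0%, 61.1% and 60.5% in the G0 pools, and passed limma (adjusted p = 0.0444). Its neighbour at 16061677 did not separate the groups, at 96.1% and 85.6% in the G5 pools, against 73.0%, 87.6% and 79.5% in the G0 pools.

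On chromosome 18, 4 Zfp genes had positions, and none passed limma on percents, while Zfp407, Zfp532 and the intronic CpG of Zfp608 did on the log2 odds scale. Zfp608 had a lower coding CpG at 92.6% and 75.8% in the G5 pools, against 100%, 94.6% and 97.1% in the G0 pools, and a lower intronic CpG at 6.94% and 1.49% in the G5 pools, against 23.1%, 11.2% and 18.7% in the G0 pools. The mean difference of -13.2 points was -7.64 without G5 pool 2. Zfp191, needed for myelination by oligodendrocytes, was lower 1308 bp upstream of its start site, at 80.2% and 67.3% in the G5 pools, against 83.6%, 89.8% and 92.7% in the G0 pools. Without G5 pool 2 its -14.9 points were -8.46. The positions named for Zfp407, in a coding exon of the dipeptidase gene Cndp1, and for Zfp532, between genes, both reached 100% in both G5 pools. In the G0 pools Zfp407 was at 93.6%, 92.3% and 82.4%, and Zfp532 at 84.9%, 91.7% and 90.8%. The 10.6 points of Zfp407 were 7.05 without G0 pool 3.

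The 3 Zfp genes left had 1 position each, outside promoters, and none passed limma on percents, while Zfp580 and Zfp287 did on the log2 odds scale. Zfp580 was higher in its last exon, at 95.1% and 93.3% in the G5 pools, against 70.1%, 78.5% and 84.5% in the G0 pools. Zfp287 was lower in a shore, at 0% and 1.89% in the G5 pools, against 22.6%, 10.4% and 15.8% in the G0 pools. Zfp536, a gene of neuronal differentiation, was lower at 73211 bp upstream of its start site, at 88.6% and 74.2% in the G5 pools, against 97.6%, 95.9% and 91.9% in the G0 pools, and its -13.7 points were -6.52 without G5 pool 2 and -20.97 without G5 pool 1.

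Set beside the other 4622 listed positions, Zfp positions were described by their annotation, with no test, because positions of 1 island are not independent and the CpGs that were measured and not listed are not known. Higher positions made up 68.2% of Zfp positions and 55.7% of the others. Counted as clusters within 1 kb, so that an island counts once, the higher share was 59.6% of 47 Zfp clusters, against 52.4% of all 3467 clusters. Among higher positions, CpG islands held 25 of 45 for Zfp (55.6%) and 42.8% of the others, exons held 22 (48.9%) and 37.2%, and introns held 8 (17.8%) and 31.0%. The single island of Zfp783 gave 7 of these 25 island positions and 7 of these 22 exon positions. The flag shares were not counted by cluster, so that island weighs on both. Among lower ones, promoters held 3 of 21 for Zfp (14.3%) and 27.8% of the others, and introns 4 (19.0%) and 35.9%. Of the 66 Zfp positions 30 (45.5%) lay within 10 kb of the start site, against 54.4% of the others. By GENCODE, 38 lay inside the gene named, 15 of them in coding sequence, and 28 outside it, of which 7 were inside another gene. The median GC content of the 200 bp around a CpG was 65.5% at higher and 62.0% at lower Zfp positions, against 63% and 59% at the others.

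**Figure D4:**
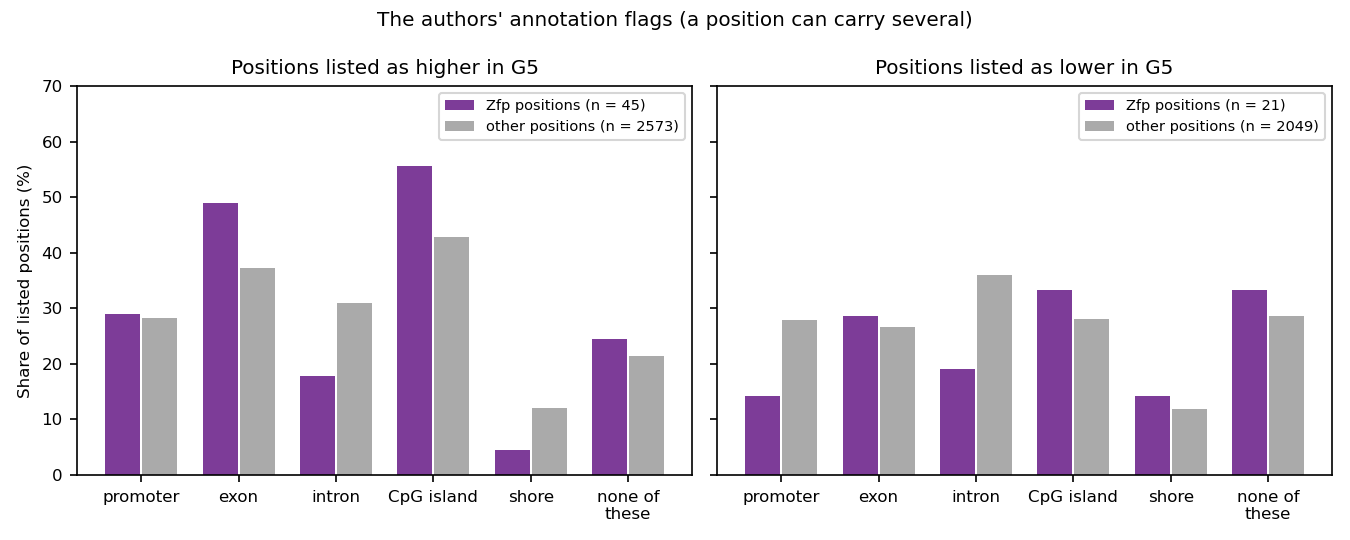
Share in percent of listed positions that carry each of the authors' annotation flags, for Zfp positions (purple) and all other listed positions (grey), higher in G5 on the left and lower on the right. Among higher positions the Zfp bar is above the grey bar for exons (48.9% against 37.2%) and islands (55.6% against 42.8%), and below it for introns (17.8% against 31.0%). The exon and island bars each include the 7 positions of the single Zfp783 island.

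Of the other zinc finger genes chosen by name, such as the Zbtb, Klf and Prdm genes, 37 were listed with 27 higher and 41 lower positions, of which 13 (48.1%) and 16 (39.0%) passed limma, where 33.2% and 33.0% of all listed positions did. Higher positions were thus 39.7% of that list, against 68.2% for the Zfp genes, a contrast that was not tested. By clusters within 1 kb the Zfp share was 59.6%, and the other list was not counted by cluster. Among the genes of that list with the most positions, Gli2 and Klf8 had lower positions only, and Bcl11b and Zfx had both. Of 27 partners of KRAB repression and of DNA methylation enzymes, 6 were listed, with 2 higher and 7 lower positions. The H3 lysine 9 methyltransferase gene Suv39h1 had 3 of the lower ones in its X-linked promoter island, and they were the positions of that list that passed limma, at 19.6% and 22.9% in the G5 pools, against 41.2%, 41.2% and 41.6% in the G0 pools. As at Zfp185, the sex of the pooled mice did not enter the comparison of these X-linked positions, and its part was not tested. Cbx3, Atf7ip and Dnmt3a had lower positions and Hdac2 and Tet2 had 1 higher position each, none past limma. Cbx3, which encodes a heterochromatin protein, was at 0% in both G5 pools at a promoter CpG, against 16.7%, 11.1% and 5.06% in the G0 pools.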

How the data were processed

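Genomic DNA of sorted CMP was profiled in 2 G5 and 3 G0 pools, each of 14000 to 30000 cells and at least 45 ng of DNA. The submitters' processing notes name mm10, Bowtie, Bismark 0.7.11 and methylKit. By the series' design text, Bismark called methylation from Bowtie alignments and methylKit compared the groups by Fisher's exact test. It gives about 63% of reads aligned, and promoters that reach 1 kb before and 500 bp past RefSeq starts. The deposited tables give percent methylation per pool, the authors' p-value and q-value, and a difference score in points, per the file headers. The largest q-value was 0.00999 and the smallest absolute difference 10.0. The reads behind each position and any minimum set on them are not known here, so no read-count test could be run and intervals around levels cannot be had. Fisher's test on reads, if pooled, does not count the spread between pools.

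Positions were read as cytosines counted from 0 (2356 on the plus and 2332 on the minus strand, 0 off a CpG of GRCm38.p6) and annotated with GENCODE M21; gene coordinates are GENCODE's and sequences are from the RefSeq assembly GRCm38.p6. limma 3.58.1 (R 4.3.3) was fitted on percents of all positions without a block and tested on simulated data. Alternatives were a log2 odds scale, a replicate block, CpGs averaged over strands, an authors' q-value under 0.001 and each pool left out. C2H2, CCCH, linker and KRAB A box matches were found by letter patterns. Genes with 2 or more positions, a promoter position, both directions, or the 6 largest differences in a direction were to be given in full; the rest were added. From the list of other zinc finger genes, 1 gene that the rule names is not reported here. The members and lists were chosen with earlier results of these data known. Other steps used Python 3.11.15, pandas 2.3.3, pysam 0.24.0 and Biopython 1.88. No group of 3 or 2 pools allows an outlier test.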

Additional observations from a re-analysis of the deposited data

How the results depend on the processing

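The pool numbers name pools and pair nothing in the labels, and deviations of same-numbered pools correlated at 0.0124 and 0.0476. With the replicate block, limma called 0 higher and 0 lower Zfp positions, with 17 and 4 at an unadjusted p under 0.05. With 1 pool left out (a lone G5 pool is then assumed to vary like the G0 pools) the higher calls ranged from 0 to 19 and the lower calls from 0 to 10, against 13 and 5 with all pools: 0 of each without any G0 pool, 19 and 10 without G5 pool 1, and 12 and 4 without G5 pool 2. At an unadjusted p under 0.05, 31 and 16 passed. For the block, the pools left out, the unadjusted p and the authors' q-value under 0.001, no share over all listed positions was counted. The log2 odds scale gave 15 calls among higher and 12 among lower positions, and 3 of each were also called on the percent scale. Among positions with an authors' q-value under 0.001 there were 15 higher and 3 lower calls, and 28 of 34 positions had pools without overlap, against 56 of 66; fewer positions enter there. Over the pools left out that count of 56 ranged from 58 to 62, and it could not fall, because fewer pools then have to be apart. The share of higher positions ran from 59.6% to 76.5% over the settings tried, and was 64.4% without Zfp783, a setting chosen after seeing the data. Every gene mean kept its sign when a pool was left out, except Zfp319, which ranged from -2.16 points without G5 pool 2 to 23.3 points without G5 pool 1. The cause of these shifts was not tested. Depth per position is unknown, so it cannot be said which levels are precise.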
